A study of Mus musculus with 8 samples.

Results

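Caveolae are small flask-shaped pits of the plasma membrane, and 10 genes of their coat, neck and associated membrane repair were read here in lungs of mice that over-express Fra-2. The family is defined by function, but it was proposed with results of the same Fra-2 TG and WT arrays in view and so counts as chosen by these measured differences; which of them prompted it is not recorded. Its members are the caveolins Cav1, Cav2 and Cav3, the cavins Cavin1, Cavin2, Cavin3 and Cavin4 (on the platform under the older names Ptrf, Sdpr, Prkcdbp and Murc), the neck proteins Ehd2 and Pacsin2, and dysferlin, Dysf. All 10 were found among the 20863 named genes, on 23 of 31465 named spots, and all 10 lay above the floor for dim signals in every mouse. This floor is the median of all spots, 4.74 on the log2 scale. Where a gene had several spots, the brightest, by its mean over all 8 arrays, stood for it, and the other spots are given as well.

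Lungs came from 4 samples labelled as Fra-2 over-expressing (Fra-2 TG) and from 4 wild-type (WT) samples, each called a mouse here by its number in the labels. Both groups were C57BL/6 and 8 weeks old, and each sample was measured on 1 single-colour array. Fra-2, the product of Fosl2, is an AP-1 transcription factor, and the promoter that drives the transgene is not given in the sources used here. Levels are log2 normalised intensities, and differences are Fra-2 TG minus WT on that scale.

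Caveolins form the membrane-embedded scaffold of caveolae, and cavins assemble on it from the cytoplasm as a peripheral coat. In lung, caveolae are abundant in capillary endothelium and in flat alveolar type 1 cells, while a muscle set, with caveolin 3 and cavin 4, serves heart and skeletal muscle. Dysferlin is a calcium-binding protein of the plasma membrane that is best known for resealing torn muscle membrane and also occurs in monocytes and endothelium.

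The arrays resembled each other closely, with a mean correlation of each array with the others of its group of 0.976 to 0.985 over all genes. The mice numbered 4 had the lowest value of each group. Lung markers were bright in every mouse: the summed level of 6 surfactant and secretory genes was 18.25 to 18.34 in Fra-2 TG lungs and 18.31 to 18.35 in WT lungs. All but Napsa stood near the top of the scale, 16, which limits how far these sums could differ. Napsa read 12.59 to 13.01 in Fra-2 TG and 11.64 to 13.03 in WT lungs, lowest in WT mouse 4. Fosl2 itself was read by 2 spots, which differed in opposite directions. The brighter averaged 9.86 ± 0.59 in Fra-2 TG and 10.61 ± 0.37 in WT lungs, and the dimmer 6.97 ± 0.64 in Fra-2 TG and 4.52 ± 0.88 in WT lungs (SD, n = 4 each). On the brighter spot the groups overlapped. On the dimmer they did not, at 6.35 to 7.85 in Fra-2 TG and 3.44 to 5.58 in WT lungs, with WT mice 1 to 3 under the floor. Neither difference passed over all named spots (limma adjusted p = 0.537 and 0.153). The spots, whose target stretches were not looked up, do not settle a check of the genotype. In whole lung, fewer cells of a type and less RNA per cell cannot be told apart.

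Since the over-expressed protein is an AP-1 factor, the upstream windows of the caveolar genes were searched for the AP-1 letters TGACTCA, or TGAGTCA on the other strand. RefSeq windows of the 250 bases before an annotated start (GRCm38.p6) were at hand for 9 of the 10 genes, 14 windows in all. No window was at hand for Cavin3, so it was not searched. The letters stood in 2 of the 14, 1 of Cav2 and 1 of Pacsin2, against 4.46% of 32851 windows of this length over all genes. The 14 are not separate promoters, since some genes have several windows and the 2 of Cavin1 overlap almost fully. The related CRE letters TGACGTCA, the same on either strand, stood in 0 of the 14 windows and in 1.55% of all windows. The windows of Cav2 and Pacsin2 that hold a match are printed with it in capitals, followed by the 2 windows of Dysf, which hold none. The match in Cav2 ends 86 bases before the start, and that in Pacsin2 ends 146 bases before the start, at the middle of its 3 annotated starts.
Cav2, chr6:17280935-17281184, plus strand: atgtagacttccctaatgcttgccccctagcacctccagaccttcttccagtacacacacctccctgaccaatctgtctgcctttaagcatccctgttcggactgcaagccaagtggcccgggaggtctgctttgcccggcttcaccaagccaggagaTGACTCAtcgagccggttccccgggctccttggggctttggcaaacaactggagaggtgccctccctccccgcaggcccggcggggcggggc
Pacsin2, chr15:83447881-83448130, minus strand: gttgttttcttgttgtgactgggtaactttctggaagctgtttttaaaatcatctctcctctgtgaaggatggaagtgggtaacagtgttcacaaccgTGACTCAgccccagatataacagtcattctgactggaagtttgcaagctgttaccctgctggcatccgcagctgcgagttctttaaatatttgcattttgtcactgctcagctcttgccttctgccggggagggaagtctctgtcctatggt
Dysf, chr6:84008348-84008597, plus strand: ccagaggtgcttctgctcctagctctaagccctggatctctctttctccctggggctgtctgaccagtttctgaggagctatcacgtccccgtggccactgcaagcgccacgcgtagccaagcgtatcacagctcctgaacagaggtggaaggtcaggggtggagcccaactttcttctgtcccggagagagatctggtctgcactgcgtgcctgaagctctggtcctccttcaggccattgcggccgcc
Dysf, chr6:84019136-84019385, plus strand: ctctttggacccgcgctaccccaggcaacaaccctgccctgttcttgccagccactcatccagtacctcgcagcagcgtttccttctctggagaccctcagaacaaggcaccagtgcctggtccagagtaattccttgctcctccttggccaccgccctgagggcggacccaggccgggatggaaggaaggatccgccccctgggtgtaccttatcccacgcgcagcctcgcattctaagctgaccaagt
A match is a description of the letters and shows no binding. Only these 250 bases were searched, and a link between matches and levels was not tested. The levels of the genes are given below.

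Cavin3 and Dysf rose in Fra-2 TG lungs, by 2.28-fold and 2.40-fold, and no gene of the family fell. The remaining caveolin, cavin and neck genes differed by less than Cavin3 and Dysf and did not pass the test. Of the 10 genes, 2 passed limma's test with Benjamini-Hochberg adjustment over all 20863 genes at 0.05, both higher and 0 lower, where 0.125% of all genes were called higher, 0.0911% lower and 0.216% in either direction. The groups did not overlap in 4 of the 10, Cavin3, Dysf, Cavin4 and Ehd2, all higher in Fra-2 TG, where 3.99% of all genes had this pattern, 2.54% were lower without overlap and 6.53% did not overlap in either direction. The difference was above 0 in 7 of the 10, against 52.4% of all genes. The median difference of the 10 was 0.31, against 0.01 over all genes. Because the family was proposed with these arrays in view, these counts and p-values describe it and are no independent evidence.

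**Figure D1:**
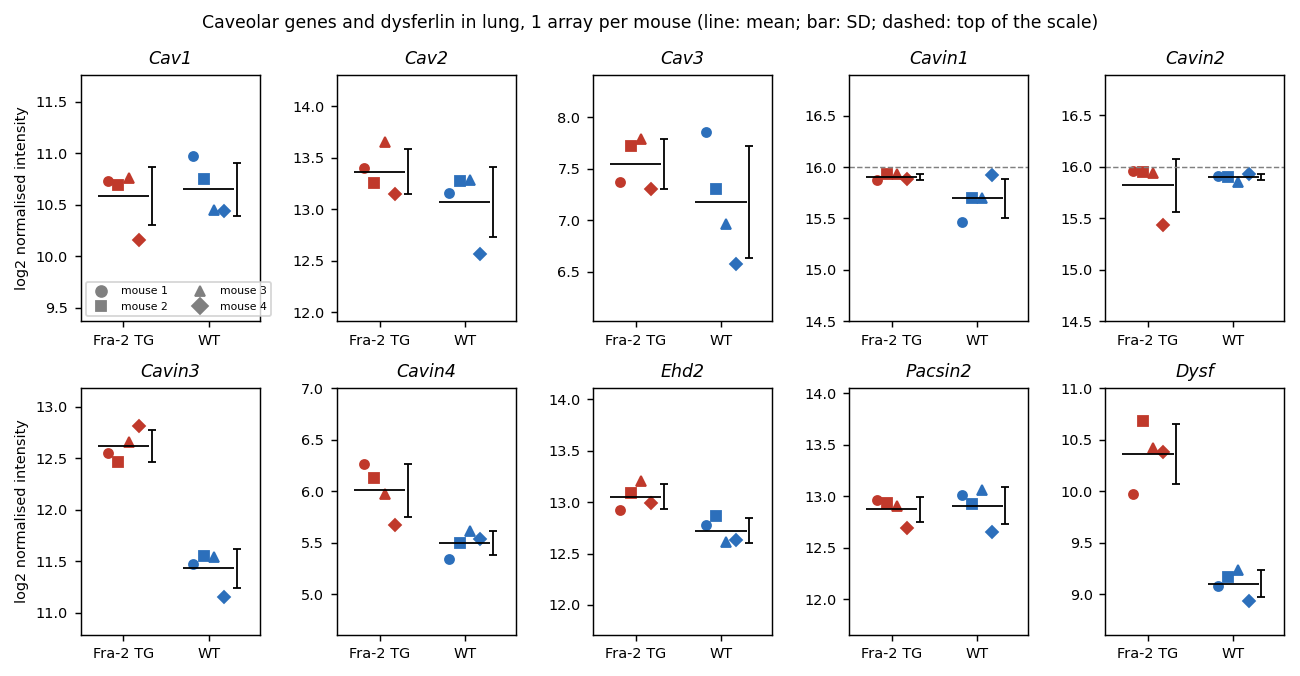
Log2 normalised intensity of the 10 genes (vertical axes, each spanning the same range) in 4 Fra-2 TG and 4 WT lungs, with 1 symbol per mouse, lines at group means and bars of 1 SD. The groups stand wide apart for Cavin3 and Dysf, Cavin1 and Cavin2 lie just under the top of the scale (dashed), and mouse 4 of either group is often the lowest point.

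Cav1 encodes caveolin 1, the scaffold protein without which caveolae are lost outside muscle. Its spot read 10.73, 10.70, 10.76 and 10.16 in Fra-2 TG mice 1 to 4, against 10.97, 10.75, 10.45 and 10.44 in WT mice 1 to 4. The groups overlapped, and Fra-2 TG mouse 4 lay below all others. The difference was -0.07 (SE 0.19, 95% interval -0.50 to 0.37, limma adjusted p = 0.940). It was 0.075 without Fra-2 TG mouse 4 and 0.040 without WT mouse 1.

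Cav2 lies next to Cav1 on chromosome 6, with 0 annotated genes between them, and encodes caveolin 2, which joins caveolin 1 in mixed oligomers. Its brightest spot read 13.40, 13.26, 13.65 and 13.14 in Fra-2 TG mice 1 to 4, against 13.16, 13.28, 13.29 and 12.57 in WT mice 1 to 4. The groups overlapped except that WT mouse 4 lay below every other mouse. The difference was 0.29 (SE 0.20, 95% interval -0.16 to 0.75, limma adjusted p = 0.699), and 0.12 without WT mouse 4.

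The array holds 12 spots for Cav2, so several readings of 1 gene within an array can be set side by side. In 10 of them the mean level was above 12, and the SD between these 10 spots within a mouse was 0.094 to 0.172. This SD takes in steady differences in level between the spots. The differences between the groups on these 10 spots ran from 0.26 to 0.32 with a median of 0.29. The median over the 10 spots was 12.43 in WT mouse 4, against 13.01, 13.04 and 13.01 in WT mice 1 to 3. The other 2 spots were dimmer, near 10 and 6, and differed by 0.55 (SE 0.36) and 0.34 (SE 0.38). All 12 spots had a higher mean in Fra-2 TG lungs, and 0 of them passed the test over all named spots (limma adjusted p from 0.642 to 0.819). The spots read the same RNA of the same mice and are no replicates of the comparison.

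**Figure D2:**
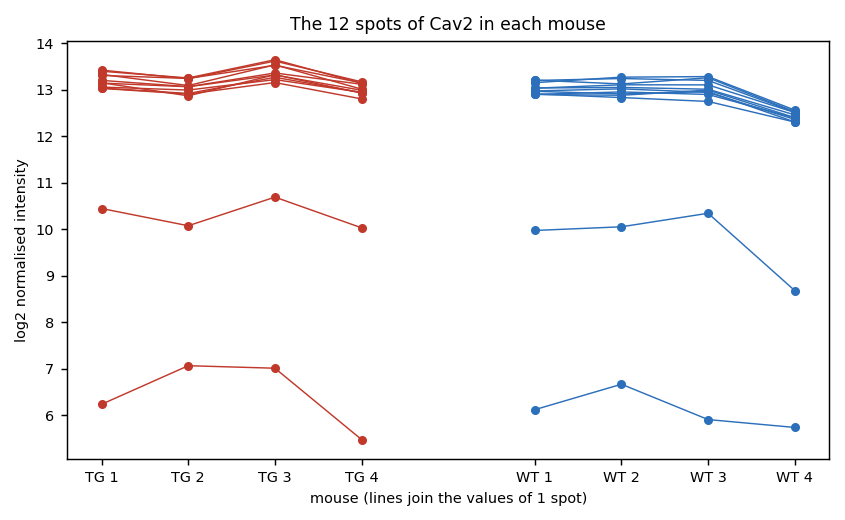
Log2 normalised intensity (vertical axis) of the 12 spots of Cav2 in Fra-2 TG mice 1 to 4 (left) and WT mice 1 to 4 (right), with a line for each spot. The 10 bright spots run in parallel, and WT mouse 4 is the lowest WT mouse in all 12.

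Cav3 encodes caveolin 3, the caveolin of muscle. It read 7.37, 7.72, 7.79 and 7.30 in Fra-2 TG mice 1 to 4, against 7.86, 7.31, 6.96 and 6.57 in WT mice 1 to 4. The WT values spread over a wider range, which took in all Fra-2 TG values. The difference was 0.37 (SE 0.27, 95% interval -0.25 to 1.00, limma adjusted p = 0.720), 0.17 without WT mouse 4 and 0.60 without WT mouse 1.

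Cavin1 is required to build caveolae in any tissue. Its bright spot read 15.88, 15.93, 15.94 and 15.88 in Fra-2 TG mice 1 to 4, against 15.46, 15.70, 15.70 and 15.93 in WT mice 1 to 4. These values stand just under the highest value on the arrays, 16, above which no level is reported. The difference was 0.21 (SE 0.13, 95% interval -0.08 to 0.50, limma adjusted p = 0.666). A dim second spot, far from that ceiling, read 5.62 to 5.85 in Fra-2 TG lungs and 5.09 to 5.59 in WT lungs without overlap. Its difference was 0.39 (SE 0.15), with an exact permutation p of 0.0286 (two-sided), the smallest that 4 mice against 4 allow, and a limma adjusted p of 0.488 over all named spots.

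Cavin2 shapes caveolae in lung endothelium, where mice without it lose them. Its spot, also near the ceiling, read 15.96, 15.94, 15.94 and 15.43 in Fra-2 TG mice 1 to 4, against 15.91, 15.90, 15.86 and 15.93 in WT mice 1 to 4. Fra-2 TG mouse 4 lay below the other 7 mice, which were all within the same narrow band. The difference was -0.08 (SE 0.15, 95% interval -0.42 to 0.25, limma adjusted p = 0.899), and 0.048 without Fra-2 TG mouse 4.

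Cavin3 encodes the coat protein first known as a binding partner of protein kinase C delta. It read 12.55, 12.46, 12.66 and 12.82 in Fra-2 TG mice 1 to 4, against 11.48, 11.55, 11.54 and 11.15 in WT mice 1 to 4. Every Fra-2 TG mouse lay above every WT mouse, with a clear gap between the groups. Means were 12.62 ± 0.15 in Fra-2 TG and 11.43 ± 0.19 in WT lungs (SD, n = 4 each), a 2.28-fold rise (difference 1.19, SE 0.14, limma adjusted p = 0.0180, rank 29 of 20863 genes by p). The size held at 1.10 to 1.24 with any 1 mouse left out, but the call was lost without Fra-2 TG mouse 1, 2 or 3 or WT mouse 1, 2 or 3 (adjusted p from 0.0540 to 0.0958). It was kept without Fra-2 TG mouse 4 (0.0495) or WT mouse 4 (0.0318).

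Cavin4 is the muscle member of the cavins. It read 6.27, 6.13, 5.98 and 5.67 in Fra-2 TG mice 1 to 4, against 5.34, 5.50, 5.61 and 5.54 in WT mice 1 to 4. The groups did not overlap, but Fra-2 TG mouse 4 and WT mouse 3 were only a small step apart. The difference was 0.51 (SE 0.15, 95% interval 0.16 to 0.86), which did not pass (limma adjusted p = 0.351). The spot is dim, and an offset of 32 before the log2 brought the difference to 0.32.

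Ehd2 encodes an ATPase that forms rings at the caveolar neck and holds caveolae at the surface. Its brighter spot read 12.92, 13.09, 13.21 and 12.99 in Fra-2 TG mice 1 to 4, against 12.78, 12.87, 12.61 and 12.63 in WT mice 1 to 4. Every Fra-2 TG value lay above every WT value, by a small margin. The difference was 0.33 (SE 0.12, 95% interval 0.05 to 0.61), which did not pass over all genes (limma adjusted p = 0.468). A second spot read 9.53 to 10.01 in Fra-2 TG and 8.95 to 9.94 in WT lungs, with overlap and a difference of 0.41 (SE 0.22).

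Pacsin2, whose F-BAR domain bends membrane at the neck, read 12.96, 12.94, 12.90 and 12.69 in Fra-2 TG mice 1 to 4, against 13.01, 12.92, 13.06 and 12.65 in WT mice 1 to 4. The values of the groups were interleaved, with mouse 4 the lowest of each. The difference was -0.04 (SE 0.13, 95% interval -0.34 to 0.27, limma adjusted p = 0.954), 0.023 without Fra-2 TG mouse 4 and 0.012 without WT mouse 3.

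Dysf read 9.97, 10.68, 10.42 and 10.39 in Fra-2 TG mice 1 to 4, against 9.08, 9.16, 9.23 and 8.93 in WT mice 1 to 4. Every Fra-2 TG mouse lay well above the WT mice, Fra-2 TG mouse 1 the least so. Means were 10.36 ± 0.29 in Fra-2 TG and 9.10 ± 0.13 in WT lungs (SD, n = 4 each), a 2.40-fold rise (difference 1.26, SE 0.17, limma adjusted p = 0.0309, rank 38 of 20863 genes by p). The difference stayed between 1.15 and 1.39 with any 1 mouse left out. The call was kept without Fra-2 TG mouse 1 (adjusted p = 0.0290) and lost without any other mouse, that is Fra-2 TG mouse 2, 3 or 4 or any WT mouse (0.0799 to 0.146). Cavin3 and Dysf were each read by 1 spot, so no second spot bears on either rise.

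**Figure D3:**
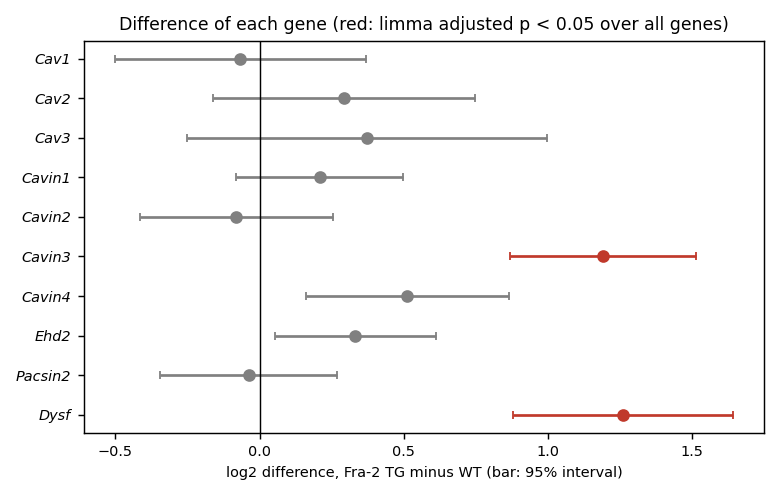
Log2 difference, Fra-2 TG minus WT (horizontal axis), of each gene with its 95% interval from the fit. The intervals of Cavin3 and Dysf (red) start at 0.87 and 0.88, while those of Cav1, Cav2, Cav3, Cavin1, Cavin2 and Pacsin2 include 0.

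**Figure D4:**
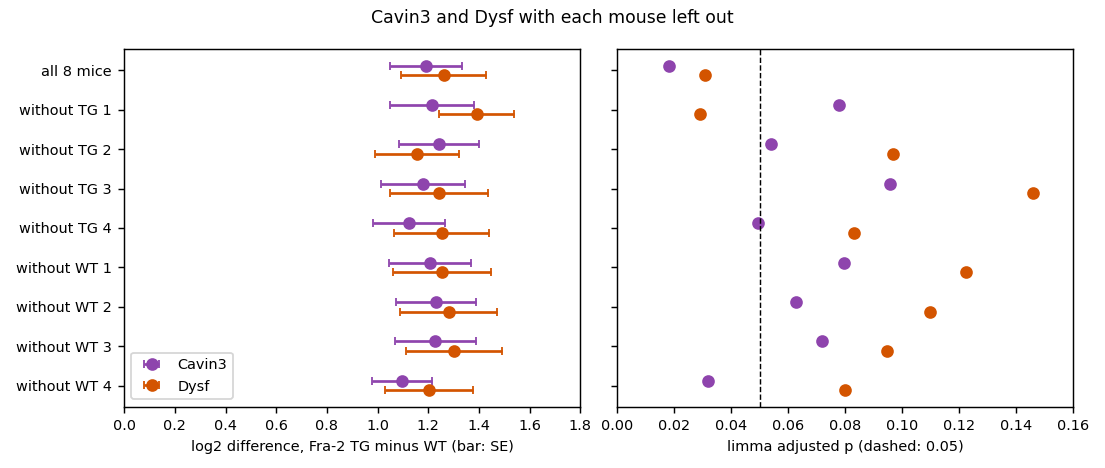
Left, log2 difference (Fra-2 TG minus WT, bars of 1 SE) of Cavin3 and Dysf with all 8 mice and with each mouse left out; right, the limma adjusted p of the same fits with 0.05 dashed. The differences barely move, while most adjusted p-values lie to the right of the line.

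Related genes of the caveolar neck and cargo, of membrane repair, of flotillins and of the dystrophin complex were read beside the family. Of 45 measured genes in these 4 lists, limma called 0 over all genes, while 5 with a positive and 1 with a negative difference had an unadjusted p under 0.05, which 9.15% of all genes had, and their median difference was -0.02. Nos3, the endothelial nitric oxide synthase that caveolin 1 binds and restrains, read 11.65, 11.96, 11.97 and 12.16 in Fra-2 TG mice 1 to 4, against 11.06, 11.22, 11.12 and 11.30 in WT mice 1 to 4. The groups did not overlap, and the difference of 0.76 (SE 0.14) had a limma adjusted p of 0.126. It passed with a variance trend (adjusted p = 0.0300) and with an offset of 32 (0.0342).

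In the neck and cargo list, 3 of 12 genes had a positive difference (median -0.07). Relatives of the neck proteins had differences below 0, Ehd3 of -0.33 (SE 0.19) and Pacsin3 of -0.42 (SE 0.17, no overlap between the groups), neither past the test (limma adjusted p = 0.646 and 0.513). Ror1, a receptor that holds caveolin 1 and cavin 1 together, lay under the floor in all 8 mice.

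Among ferlins and repair proteins, 11 of 17 measured genes had a positive difference (median 0.04). S100a10, the partner of annexin A2, differed by 0.84 (SE 0.23, limma adjusted p = 0.296) without overlap, reading 13.20 to 14.19 in Fra-2 TG and 12.45 to 12.86 in WT lungs. Bin1, which shapes muscle membrane tubules, differed by 0.38 (SE 0.10, adjusted p = 0.285) and Parvb, a dysferlin-binding protein of muscle, by 0.43 (SE 0.14, adjusted p = 0.408), both without overlap. Of the other ferlins, Fer1l4 differed by 0.66 (SE 0.27, adjusted p = 0.509), Myof by 0.29 (SE 0.25) and Otof by -0.06 (SE 0.14).

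Flotillins, scaffold proteins of membrane domains other than caveolae, and stomatins had a median difference of 0.05 over 7 genes. Erlin2 (0.23), Stoml2 (0.18), Stoml1 (0.27) and Flot2 (-0.05) had the smallest p-values and none passed (limma adjusted p from 0.611 to 0.925). The dystrophin complex, which binds caveolin 3 in muscle, had a median of -0.27 over 9 genes, led by Dag1 (-0.27), Dmd (-0.41), Sgca (-0.48) and Sspn (-0.22), none past the test (adjusted p from 0.658 to 0.737).

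Markers of the cells that carry these genes were read to show what moved with them. Of 109 measured markers in 10 lists, limma called 0 over all genes, and 8 with a positive and 7 with a negative difference had an unadjusted p under 0.05, against 9.15% of all genes in either direction. The summed level of 16 pan-endothelial markers was 17.47 to 17.95 in Fra-2 TG and 17.65 to 17.77 in WT lungs, and that of 11 alveolar type 1 markers 17.21 to 17.83 in Fra-2 TG and 17.57 to 17.82 in WT lungs. Fra-2 TG mouse 4 was the lowest of all 8 mice on both sums, as it was for Cav1 and Cavin2. It was also the lowest on the sums of lung markers (18.25) and of cardiac and striated muscle markers (13.86), and the highest on the mesothelial sum (13.90). The part of endothelial and alveolar type 1 cells in the levels of Cav1 and Cavin2 was not tested. Scnn1g, of the alveolar type 1 list, lay under the floor in all 8 mice. Of the 16 endothelial markers 11 had a positive and 5 a negative difference (median 0.09), and of the 11 alveolar type 1 markers 1 had a positive and 10 a negative difference (median -0.10). Sox17, an endothelial transcription factor and the endothelial marker with the smallest p, differed by 0.87 (SE 0.14, limma adjusted p = 0.0702). Emcn differed by 1.18 (SE 0.33), Tie1 by 0.57 (SE 0.18) and Pecam1 by 0.48 (SE 0.27). Sox17, Emcn and Tie1 were the 3 endothelial markers higher in Fra-2 TG without overlap, and 0 were lower without overlap. Over all genes these shares were 3.99% and 2.54%. Ager, Akap5, Pdpn and Rtkn2 of alveolar type 1 cells had differences from -0.39 (Rtkn2) to -0.10 (Pdpn).

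The 5 mesothelial markers, of the cells that line the lung surface, had a summed level of 13.22 to 13.90 in Fra-2 TG and 12.62 to 13.13 in WT lungs, without overlap. The groups did not overlap in 1 of the 5, Msln, where 6.53% of all genes did not overlap in either direction. Msln read 13.02 to 13.70 in Fra-2 TG and 12.38 to 12.92 in WT lungs. It was by far the brightest of the 5 in every mouse, so the sum mostly follows Msln. None of these markers passed, with Msln at 0.71 (SE 0.19, limma adjusted p = 0.276), Upk1b at 0.54, Lrrn4 at 0.59 and Wt1 at -0.21, and none lay under the floor throughout. The mean log2 level of the 5 overlapped, at 9.08 to 9.82 in Fra-2 TG and 8.69 to 9.28 in WT lungs. Fra-2 TG mouse 4 had the highest mesothelial sum and the highest Cavin3 of its group. WT mouse 4 had the highest mesothelial sum of the WT mice and their lowest Cavin3 and Dysf, and Fra-2 TG mouse 2 had the lowest sum of its group and its highest Dysf. The part of mesothelial cells in either rise was not tested.

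Muscle markers were read beside Cav3, Cavin4 and Dysf, which muscle also expresses. The summed level of 17 cardiac and striated muscle markers was 15.76, 15.999, 15.65 and 13.86 in Fra-2 TG mice 1 to 4, against 16.51, 15.32, 15.50 and 15.44 in WT mice 1 to 4. Fra-2 TG mouse 4 had the lowest sum and a Dysf level of 10.39, and WT mouse 1 had the highest sum and a Dysf level of 9.08. Within the Fra-2 TG group, mouse 2 had both the highest sum and the highest Dysf level, 10.68. The part of muscle in the levels of Cav3, Cavin4 and Dysf was not tested. WT mouse 1 had the highest Cav3 of all 8 mice. Of these 17 markers 14 had a negative difference (median -0.33), among them Nppa (-1.63, SE 0.54), Myh7 (-0.97), Mb (-0.77) and Tnnc1 (-0.68). Smooth muscle markers had negative differences in 12 of 12 (median -0.31), including Mylk (-0.53, SE 0.14), Cnn1 (-0.48), Tagln (-0.31) and Actg2 (-0.45), and a summed level of 15.61 to 15.91 in Fra-2 TG against 15.93 to 16.27 in WT lungs.

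The 11 measured monocyte markers are of blood cells that also carry dysferlin. Their summed level was 15.26 to 15.60 in Fra-2 TG and 15.63 to 15.82 in WT lungs, lower without overlap. Bright genes weigh most in a sum, and Nr4a1 was the brightest of the 11 in every WT mouse. It read 12.50 to 13.64 in Fra-2 TG and 13.67 to 14.58 in WT lungs, also without overlap. The mean log2 level of the 11 overlapped, at 10.62 to 10.82 in Fra-2 TG and 10.41 to 10.89 in WT lungs. The median difference of the 11 was 0.08, of the opposite sign to the sums, and the markers went both ways. Nr4a1 was at -1.12 (SE 0.32), Ccr2 at 0.52 (SE 0.18), Plac8 at 0.87 (SE 0.38) and Spn at 0.34 (SE 0.15), none past the test (limma adjusted p from 0.342 to 0.560). The part of monocytes in the level of Dysf was not tested.

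**Figure D5:**
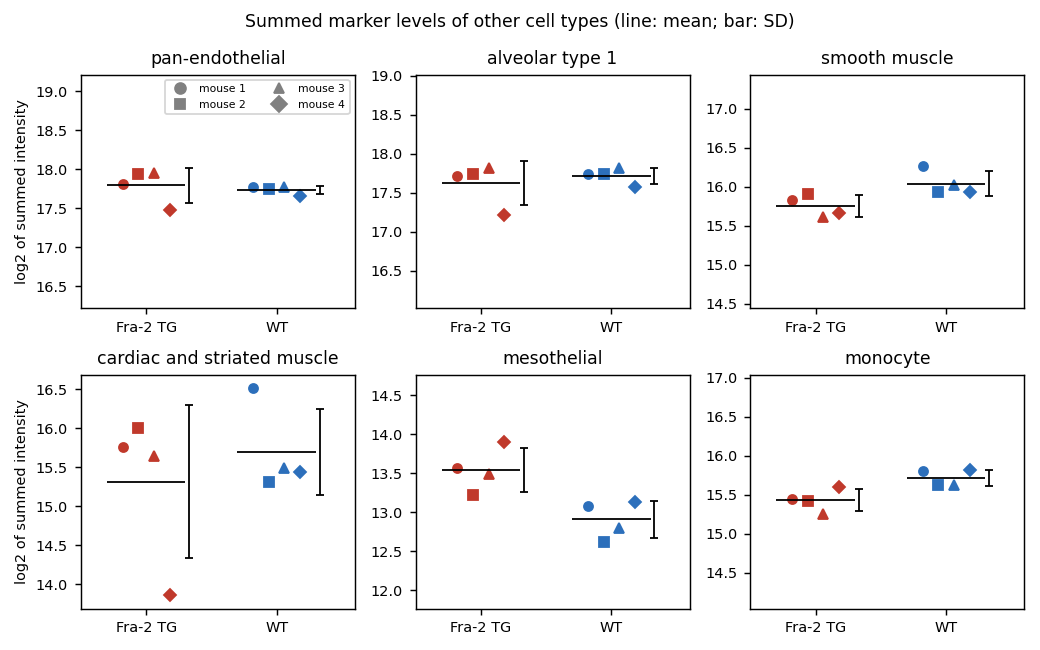
Log2 of the summed intensity of 6 marker lists (vertical axes, each spanning the same range) in 4 Fra-2 TG and 4 WT lungs, with 1 symbol per mouse, lines at group means and bars of 1 SD. Mesothelial sums are higher and smooth muscle and monocyte sums lower in all Fra-2 TG mice, while Fra-2 TG mouse 4 is far below the others for cardiac and striated muscle.

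The genes most like Cav1 and Dysf across the mice were found by Pearson's correlation of log2 levels over the 8 arrays, among 14311 other genes whose mean lay above the floor. For Cav1 they were Tram2 (r = 0.990), Clstn1 (0.976) and Glcci1 (0.965), whose differences between the groups were -0.04, -0.16 and -0.06. For Dysf they were Plscr3 (0.981), Mtmr11 (0.977) and Phlda3 (0.976). Mtmr11 (difference 1.08, limma adjusted p = 0.0196) and Phlda3 (0.89, adjusted p = 0.0323) rose as well, and Plscr3, a phospholipid scramblase, differed by 0.40 (adjusted p = 0.318). With the group means taken off, the correlations with Dysf were 0.895, 0.706 and 0.680 in that order. They are the highest of many genes over 8 arrays and are given as a description only.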

How the data were processed

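Per the labels' protocols, lung RNA was isolated with a peqGOLD kit, and Agilent's low-input single-colour labelling used Cy5. Per the submitters' processing notes, R 2.15.1 and limma 3.14.4 were used, with steps not given in the sources used here. Linear intensity was deposited by the authors for 62976 spots; all 8 arrays share 1 distribution (median 26.6, mean 1203), as after quantile normalization. No flags for saturation or background were used here.

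The log2 of each intensity was taken with no offset. Platform symbols named 31465 spots (31511 unnamed here), and RefSeq accessions (GRCm38.p6 names) matched 29050 spots and replaced 2933 symbols. The brightest spot stood for each of 20863 genes. limma 3.58.1 in R 4.3.3 (lmFit, eBayes) was fitted with group as the only term, with Benjamini-Hochberg adjustment over all genes and a threshold of 0.05. The labels number 4 samples a group and do not say that they came from separate animals, so p-values measure the spread between these samples, which may be technical. The fit was also run on simulated data as a check of the code, and no result of that run is used here. Data were read with the R package data.table, version 1.17.8, and figures drawn with Python 3.11.15 and matplotlib 3.10.9. Summed levels are the log2 of summed intensities.

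The members, the 4 pathway and 10 marker lists, the tests and the alternatives were chosen with earlier results of these data known, and the floor after the values were seen. The text names all members, genes of a list past the threshold, up to 4 genes per list with the smallest p (Myof, Otof and Scnn1g besides, after their values were seen), and 3 genes most like Cav1 and Dysf. The alternatives were scalings, offsets of 16 and 32, filters on dim genes, the mean of all spots, variance models, a replicate block and mice left out. The number of arrays limits the precision.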

Additional observations from a re-analysis of the deposited data

Results flagged for a closer look

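In 8 of 46 groups of 4 values (23 spots in 2 groups), a mouse lay far from the other 3 of its group by Dixon's criterion for 4 values; chance flags about 5% of groups. In 6 of these it was WT mouse 4 on a Cav2 spot, at 12.52, 12.52, 12.46, 12.37, 12.40 and 12.31, below WT mice 1 to 3. These spots read the same RNA and count as 1 departure. Fra-2 TG mouse 4 was low for Cav1, at 10.16 against 10.70 to 10.76 in the other Fra-2 TG mice. It was low for Cavin2 too, at 15.43 against 15.94 to 15.96. Neither Cavin3 nor Dysf held a value that met the criterion. For Cavin3, WT mouse 4 was still the lowest, at 11.15 against 11.48 to 11.55 in WT mice 1 to 3.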

How the results depend on the processing

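The count of 45 called genes became 80 and 88 with offsets of 16 and 32, 71 and 73 with dim genes left out by mean or by 4 arrays, 85 with a variance trend, 17 without both mice numbered 4 and 17 to 38 with 1 mouse left out. The 2 called members, like their 2 spots, became 0 without both mice numbered 4 and 0 to 1 with 1 mouse left out, and stayed 2 under the scalings, offsets, filters, spot rule and variance models. The samples of equal number are not shown to be paired: correlations of their deviations were 0.138, -0.013, 0.147 and 0.075. With a replicate block 5 genes, 0 members and 0 member spots were called (Cavin3 adjusted p = 0.200, Dysf 0.152), with fewer degrees of freedom. The called pathway genes became 1 (Nos3) with the offset of 32 and with the variance trend. Over all settings the difference of Cavin3 ran from 1.03 (both mice numbered 4 left out) to 1.24 and that of Dysf from 1.15 to 1.39. Small differences changed sign: Cav1 with both mice numbered 4 left out (0.0039) and within -0.14 to 0.075 with 1 mouse left out, Cavin2 likewise (0.058, and -0.13 to 0.048), and Pacsin2 with 1 mouse left out (-0.12 to 0.023). The cause was not tested. The 2 other scalings left values nearly as they were, because the arrays share 1 distribution. Values of Cavin1 and Cavin2 near the top of the scale limit what a rise could show.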

Other observations

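Fibroblast, adipocyte and neutrophil markers, 3 of the 10 marker lists counted above, had no gene past limma's test over all genes. Of 11 fibroblast markers 6 had a positive difference (median 0.02), with Col1a1, a fibrillar collagen chain, at 0.52 (SE 0.18, limma adjusted p = 0.432), Pdgfra at -0.39, Meox2 at -0.31 and Fn1 at 0.39. Adipocytes are rich in caveolae, and the summed level of 11 adipocyte markers was 14.39 to 15.58 in Fra-2 TG and 13.86 to 15.55 in WT lungs, so it varied within each group by more than 1 on the log2 scale. Of the 11 adipocyte markers 8 had a positive difference, with Fabp4 at 0.57 (SE 0.37), Plin4 at -0.58, Adipoq at 0.70 (SE 0.70) and Cidec at -0.30. The 9 measured neutrophil markers had a summed level of 16.02 to 16.69 in Fra-2 TG and 16.34 to 17.20 in WT lungs, with Retnlg at -0.56 (SE 0.37), Ngp at 1.29 (SE 0.87), Camp at 1.10 (SE 0.91) and Csf3r at -0.32.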
